A study of Homo sapiens with 4 samples.

Results

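HOX cluster genes and HOX antisense RNAs were examined in BJ-indRASG12V fibroblasts. The members are all rows of the expression data whose symbol begins with HOXA, HOXB, HOXC or HOXD, together with HOTAIR and HOTAIRM1, and they number 20 of 12033 genes (14 protein-coding genes and 6 non-coding RNAs). BJ cells are human foreskin fibroblasts, immortalized by hTERT expression. All 4 conditions carried a RASG12V that 4-OHT switches on, and all had received 4-OHT over 14 days, so that RAS was also induced in the control, and no library without RAS induction was compared here. The conditions were sg69 (sgRNA-AP1-69) and sg71 (sgRNA-AP1-71), which are separate guides against the AP-1 motif of the enhancer Enh AP1-OIS1, sgFoxF1 (sgRNA-FOXF1), a guide against the FOXF1 gene, and the control sgNT (sgRNA-NT), a non-targeting guide. Cells were transduced with the guides, and no isolation of clones is described. There was 1 library a condition, and a replicate error can therefore be given only for the average of the enhancer guides, which are different guides.

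HOX genes encode homeodomain transcription factors that lie in clusters on separate chromosomes, and their order along a cluster follows the order in which they are used along the body axis and outward along the limb. Fibroblasts keep a HOX pattern of their site of origin in culture, with genes of the high-numbered (5') end of a cluster used in distal and genital skin. Antisense RNAs are transcribed between and across the genes, and some of them, such as HOTAIR, are known to bind chromatin-modifying complexes. Levels are in RPKM, read numbers scaled to transcript length and library size, which the authors quantile-normalized over the 4 libraries and gave to 1 decimal with a floor of 1. RPKM is a level per length, so genes can be compared within a library. Without read counts, the depth behind a value is unknown and its counting error cannot be stated. The only error that could be computed for a single ratio is that of rounding to 1 decimal, and it is given below as an interval.

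As a check of the cells, the 12 fibroblast markers were above the floor in every library except for DCN, which was at the floor with sgNT and at 1.4 to 3.4 RPKM in the others. They had a summed level of 5242, 5429 and 5175 RPKM with sg69, sg71 and sgFoxF1 and 3621 RPKM with sgNT, most of it from VIM and S100A4. The collagen genes COL1A1 and COL1A2 were at 53.7 and 189.4 RPKM with sg69, 42.5 and 167.1 RPKM with sg71, and 115.6 and 292.3 RPKM with sgFoxF1, against 120.6 and 287.0 RPKM with sgNT. COL3A1, the other collagen gene among the markers, was higher than in the control, at 40.3, 41.4 and 58.5 RPKM with sg69, sg71 and sgFoxF1, against 32.3 RPKM. Over all 12 markers the median log2 ratio to sgNT was 0.19, 0.21 and 0.50 in the same libraries. Of 7 markers of keratinocytes and 5 each of melanocytes, endothelial cells and leukocytes, only KRT10 (14.2 to 19.7 RPKM) and CD14 (6.0 to 9.8 RPKM) were among the genes analysed. FOXF1 mRNA was at 11.1, 7.8 and 25 RPKM with sg69, sg71 and sgFoxF1, against 29.6 RPKM with sgNT. An mRNA level does not measure the protein lost through small insertions or deletions, so this checks the sgFoxF1 label only in part. HRAS, a RAS gene, was at 446.4 RPKM with sg69, 427.4 RPKM with sg71 and 707.6 RPKM with sgFoxF1, against 829.4 RPKM with sgNT, and its part in the differences described here was not tested.

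The reference bases before the start of HOXA11 and HOXA9 are shown because HOXA11 is the highest HOX transcript of these cells and HOXA9 is the compared member that was 1.5-fold lower with sgFoxF1. Each run is the 250 bases before the start of the canonical GENCODE transcript, 5' to 3' on the strand of the gene in GRCh37, and capitals mark CG dinucleotides.
HOXA11 (chr7:27224852-27225101, minus strand): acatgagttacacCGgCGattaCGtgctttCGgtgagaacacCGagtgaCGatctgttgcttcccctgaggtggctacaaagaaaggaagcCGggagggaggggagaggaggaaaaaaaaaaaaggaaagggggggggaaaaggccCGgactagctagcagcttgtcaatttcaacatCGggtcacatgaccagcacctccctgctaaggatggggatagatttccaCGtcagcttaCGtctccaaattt
HOXA9 (chr7:27205157-27205406, minus strand): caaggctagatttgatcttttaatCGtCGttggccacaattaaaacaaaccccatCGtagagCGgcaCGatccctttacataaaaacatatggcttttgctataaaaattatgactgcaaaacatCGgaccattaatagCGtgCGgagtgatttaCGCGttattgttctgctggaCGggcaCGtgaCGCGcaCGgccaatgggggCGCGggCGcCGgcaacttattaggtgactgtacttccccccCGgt
The HOXA9 run holds 20 CG dinucleotides at a GC content of 48.8%, and the HOXA11 run holds 11 at 51.6%. Over the same window of 12012 genes the median GC content was 66.0%, so these starts lie among the GC-poorer ones, with 6.67% of windows below that of HOXA9 and 9.87% below that of HOXA11. Windows were searched on both strands for the AP-1 letters TGACTCA and the forkhead letters GTAAACA, because the guides concern an AP-1 site and a forkhead gene. Neither was present in the windows of the 20 members, and they were present in 2.21% and 1.69% of all 12012 windows. HOX-PBX letters (TGATTNAT, both strands) were present in 1 of the 20 windows, that of HOXD11, and in 0.974% of all windows. The letters TATAAA, also searched on both strands, were present in 3 of the 20 windows (HOXA9, HOXA10 and HOXA11-AS) and in 5.15% of all windows. In the HOXA9 run they lie 150 bases before the start, on the strand of the gene. The match in the HOXA10 window lies on the opposite strand. A window without such letters says nothing about binding elsewhere in a cluster.

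Of the 20 members, 5 were silent, that is, listed at the floor in all 4 libraries: HOXB-AS1, HOXC4, HOXC11, HOXD9 and HOXD11. This is 25% of the members, against 20.1% of all genes. A further 8 members were above the floor in at least 1 library but had a mean under 2 RPKM, and 7 members had a mean of at least 2 RPKM and were compared (35.0% of the members, against 63.1% of all genes). The members just above this limit and just under it were HOXC9, with a mean of 2.08 RPKM, and HOXA13, with a mean of 1.68 RPKM. By cluster, all 9 HOXA members were above the floor in some library, whereas this held for 1 of 2 HOXB, 2 of 4 HOXC and 3 of 5 HOXD members. The highest value in any library was 40.3 RPKM for the HOXA cluster, 2.6 RPKM for HOXC and 1.9 RPKM for both HOXB and HOXD. Among the rows analysed, the higher HOX levels were thus those of the HOXA cluster, with a mean of 2 RPKM or more for each of the 6 members from HOXA7 to HOXA11. Many other HOX genes of each cluster and HOTTIP were not analysed here, so the clusters are compared only by these rows.

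**Figure D1:**
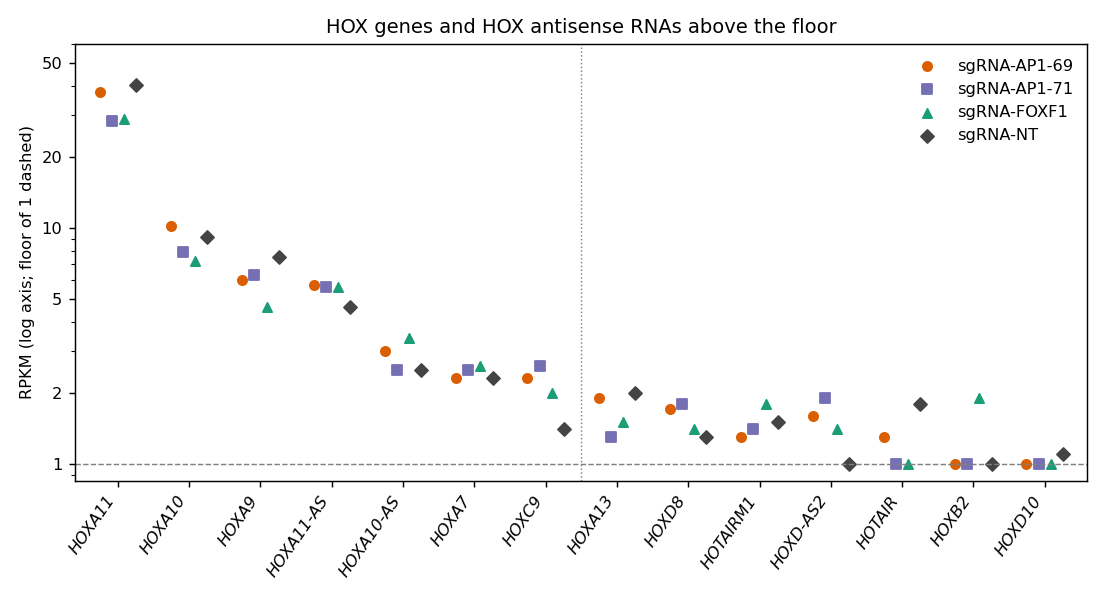
RPKM (log axis) of 14 of the 15 HOX members above the floor of 1 RPKM (dashed line), ordered by their mean, with 1 point for each of the 4 libraries. The 7 members left of the dotted line have a mean of at least 2 RPKM; HOXA11 lies between 28.4 and 40.3 RPKM and the next gene, HOXA10, between 7.2 and 10.2 RPKM.

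HOXA11 (ENSG00000005073, chr7:27220776-27224851 of GRCh37, minus strand, canonical transcript of 2669 nt in 2 exons) is a 5' HOXA gene that in the mouse patterns the forearm and the reproductive tract. Its level was 37.6 RPKM with sg69, 28.4 RPKM with sg71 and 28.8 RPKM with sgFoxF1, against 40.3 RPKM with sgNT. It was the highest member in every library and made up 48.3%, 42.8% and 44.2% of the summed RPKM of the 15 members above the floor with sg69, sg71 and sgFoxF1, against 51.4% with sgNT. In the sgNT library, 91.7% of all genes lay below it. Its log2 ratios to sgNT were -0.10, -0.50 and -0.48 with sg69, sg71 and sgFoxF1. The enhancer guides thus differed from each other by 0.40, more than sg69 differed from sgNT.

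HOXA10 (ENSG00000253293, chr7:27210224-27219880, minus strand, canonical transcript of 2541 nt) is a neighbouring gene known for its role in the uterine stroma. It was at 10.2, 7.9 and 7.2 RPKM with sg69, sg71 and sgFoxF1, against 9.1 RPKM with sgNT (log2 ratios of 0.16, -0.20 and -0.34). The control therefore lay between the enhancer guides. HOXA9 (ENSG00000078399, chr7:27202057-27214799, minus strand, canonical transcript of 2064 nt), whose span overlaps that of HOXA10 on the same strand with no exon bases shared, is best known as a regulator of blood progenitors that is active in leukaemia. It was at 6.0, 6.3 and 4.6 RPKM with sg69, sg71 and sgFoxF1, against 7.5 RPKM with sgNT. Its log2 ratio was -0.32 with sg69 (rounding interval -0.34 to -0.30), -0.25 with sg71 (-0.27 to -0.23) and -0.71 with sgFoxF1 (-0.73 to -0.68), and only the last is past 1.5-fold, a level 1.63-fold lower. Of all 7596 compared genes, 9.85% had a lower log2 ratio with sgFoxF1. HOXA7 (ENSG00000122592, chr7:27193335-27197555, minus strand, 2016 nt), a gene of the middle of the cluster, stayed near 2 RPKM, at 2.3, 2.5 and 2.6 RPKM with sg69, sg71 and sgFoxF1 and 2.3 RPKM with sgNT. HOXA13 (ENSG00000106031, chr7:27233122-27239710, minus strand, 5015 nt) is the last gene of the cluster and is needed for digits and the genital tubercle in the mouse. It was low, at 1.9, 1.3 and 1.5 RPKM with sg69, sg71 and sgFoxF1, against 2.0 RPKM with sgNT, log2 ratios of -0.07, -0.62 and -0.42.

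**Figure D2:**
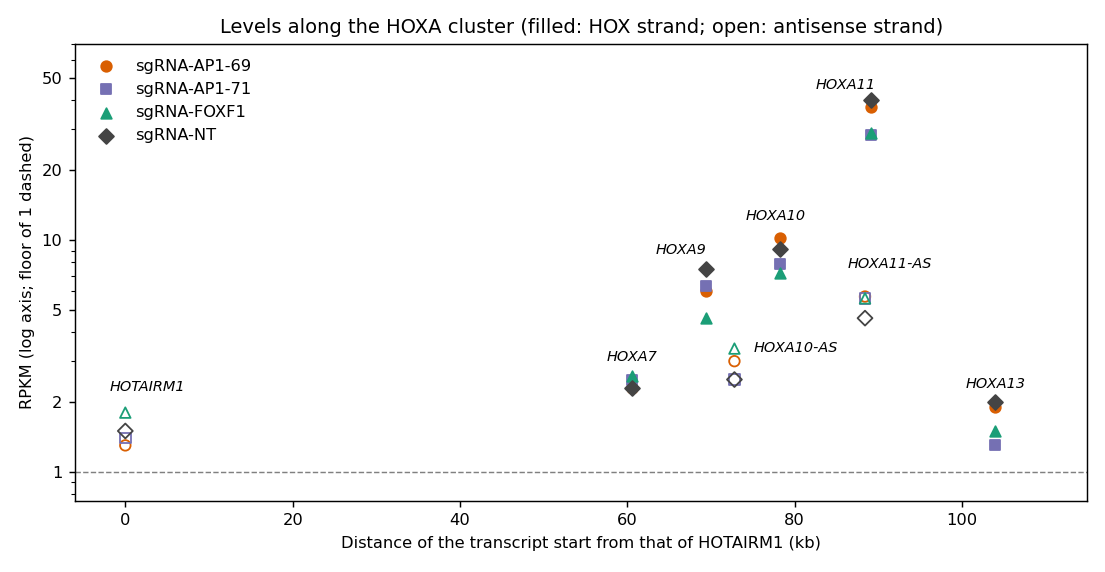
RPKM (log axis) of 8 HOXA members against the distance of their transcript start from that of HOTAIRM1 in kb, in the 4 libraries, with filled points for the strand of the HOX genes and open points for antisense RNAs. Levels peak at HOXA11, 89.1 kb from HOTAIRM1, and HOXA13, at 104 kb, lies at 2.0 RPKM or less.

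Transcripts of the opposite strand were the only non-coding members with an adequate level. HOXA11-AS (ENSG00000240990, chr7:27224126-27228917, plus strand, canonical transcript of 1431 nt) overlaps the exons of HOXA11 by 578 bp in the canonical transcripts. It was at 5.7, 5.6 and 5.6 RPKM with sg69, sg71 and sgFoxF1, against 4.6 RPKM with sgNT, log2 ratios of 0.31, 0.28 and 0.28. Its level was thus closely alike in the targeted libraries and lowest in the control. The level of HOXA11 relative to its antisense RNA was 6.60, 5.07 and 5.14 with sg69, sg71 and sgFoxF1, against 8.76 with sgNT. HOXA10-AS (ENSG00000253187, chr7:27208238-27211534, plus strand, 1161 nt) overlaps HOXA10 by 608 bp of exons, and HOXA9 by 422 bp in other than canonical transcripts. It was at 3.0, 2.5 and 3.4 RPKM with sg69, sg71 and sgFoxF1, against 2.5 RPKM with sgNT. The level of HOXA10 relative to HOXA10-AS was 3.40, 3.16 and 2.12 with sg69, sg71 and sgFoxF1, against 3.64 with sgNT. In both pairs the sense to antisense ratio was highest in the control before a correction for transcript length, with 1 control library and thus no replicate check. That correction, added for the pairs after seeing the data, sets each ratio to sgNT against compared genes of like length. With it, the HOXA10 pair turned with the enhancer guides. Its corrected log2 ratios of sense to antisense were 0.14, 0.09 and -0.56 with sg69, sg71 and sgFoxF1. Those of the HOXA11 pair were -0.21, -0.54 and -0.58. The methods describe a stranded library kit, the labels name a TruSeq RNA kit, and whether counting used strand is not given in the sources used here, so reads from overlapping exons may not have been separated by strand.

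HOTAIRM1 (ENSG00000233429, chr7:27135266-27139884, plus strand, 671 nt), a non-coding RNA of the HOXA cluster first described in myeloid cells, was near the floor at 1.3, 1.4 and 1.8 RPKM with sg69, sg71 and sgFoxF1, against 1.5 RPKM with sgNT. HOTAIR (ENSG00000228630, chr12:54356092-54368740, minus strand, 2421 nt) lies in the HOXC cluster and is an RNA known from distal and foreskin fibroblasts that binds Polycomb repressive complexes. It was at 1.3 RPKM with sg69 and at the floor with sg71 and sgFoxF1, against 1.8 RPKM with sgNT. In the libraries at the floor it was at least 1.67-fold lower than in the control, with rounding allowed for. All of these values lie within 0.8 RPKM of the floor, so this difference rests on less than 1 RPKM.

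The HOXC and HOXD members above the floor were all low. HOXC9, HOXD8 and HOXD-AS2 had their lowest value in the control, and HOTAIR and HOXD10 their highest. HOXC9 (ENSG00000180806, chr12:54388679-54397121, plus strand, canonical transcript of 1474 nt) belongs to the group of HOX genes that mark the thoracic trunk in the mouse. It was at 2.3, 2.6 and 2.0 RPKM with sg69, sg71 and sgFoxF1, against 1.4 RPKM with sgNT. The log2 ratios were 0.72 with sg69 (rounding interval 0.63 to 0.80), 0.89 with sg71 (0.81 to 0.97) and 0.51 with sgFoxF1 (0.43 to 0.60). These are differences of 0.6 to 1.2 RPKM. HOXC9 was under 2 RPKM in the control and reached the mean needed for comparison only through the targeted libraries, so its ratio and its entry are not independent. Of the 7596 compared genes 95.7%, 95.1% and 85.6% had a lower log2 ratio in the same libraries. In the HOXD cluster, HOXD8 (ENSG00000175879, chr2:176994422-176997423, plus strand) was at 1.7, 1.8 and 1.4 RPKM with sg69, sg71 and sgFoxF1, against 1.3 RPKM with sgNT. HOXD-AS2 (ENSG00000237380, chr2:176986339-177001826, minus strand), which spans HOXD8 on the other strand and overlaps it by 642 bp of exons of other than canonical transcripts, was at 1.6, 1.9 and 1.4 RPKM with sg69, sg71 and sgFoxF1, against the floor with sgNT. With rounding allowed for, it was thus at least 1.48-fold higher with sg69, at least 1.76-fold higher with sg71 and at least 1.29-fold higher with sgFoxF1. Both transcripts of this locus were highest with sg71. HOXD10 (ENSG00000128710), a gene of the 5' side of its cluster, was at the floor in the targeted libraries, against 1.1 RPKM with sgNT. The single HOXB gene above the floor, HOXB2 (ENSG00000173917, chr17:46618256-46622471), a hindbrain-patterning gene, was at 1.9 RPKM with sgFoxF1 and at the floor in the other 3 libraries, including sgNT, so that with rounding allowed for it was at least 1.76-fold higher with sgFoxF1.

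**Figure D3:**
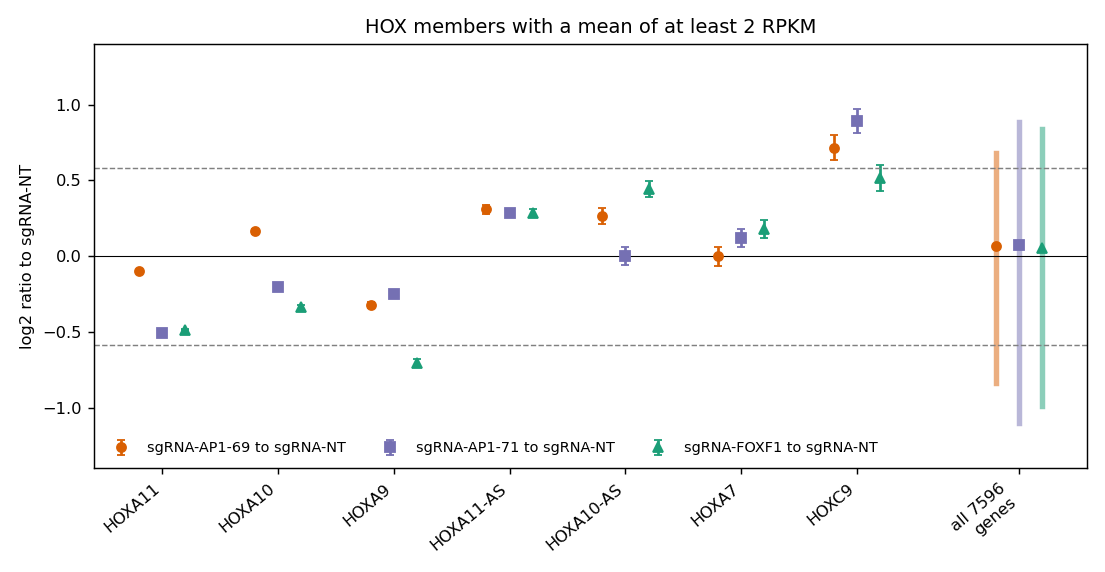
log2 ratios of each targeted library to sgNT for the 7 compared HOX members, with bars for the rounding interval and dashed lines at a 1.5-fold difference, beside the median (point) and the 5th to 95th percentile (line) of all 7596 compared genes. Only HOXC9 with sg69 (0.72) and sg71 (0.89) and HOXA9 with sgFoxF1 (-0.71) lie outside the dashed lines.

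As a group, few of the compared HOX members reached a 1.5-fold difference from the control. With sg69, 1 of 7 members (HOXC9) was at least 1.5-fold higher and 0 were lower, beside 8.18% and 9.93% of all 7596 compared genes. With sg71, 1 of 7 (again HOXC9) was higher and 0 were lower, beside 14.0% and 14.7% of compared genes. With sgFoxF1, 0 of 7 were higher and 1 (HOXA9) was lower, beside 11.6% and 13.2%. HOXC9 entered the compared members through the libraries where it was high, so its count carries no weight. A count of 1 in 7 is close to these shares and is no result about HOX genes. A 2-fold difference was reached by 0 of 7 members in each library, beside 1.34% of genes higher and 3.3% lower with sg69, 3.8% and 6.38% with sg71, and 3.2% and 4.96% with sgFoxF1. The median log2 ratio of the 7 members was 0.16, 0.00 and 0.18 with sg69, sg71 and sgFoxF1, beside 0.07, 0.08 and 0.05 for all compared genes. The 5 coding members had medians of 0.00, -0.20 and -0.34 with sg69, sg71 and sgFoxF1, and the 2 antisense RNAs had medians of 0.29, 0.14 and 0.36. The 3 comparisons share the sgNT library, so the repeated order of these medians is not independent.

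With 1 control library, limma can only set both enhancer guides, as a group of 2, against sgNT. Its SE rests on the difference between guides, moderated toward that of all compared genes and scaled for 2 guides and 1 control library. It holds no spread of the control, so neither a call nor the lack of one can be taken from limma, and its values are given as a description. Those of HOXC9, which entered the compared members through the libraries where it was high, carry no weight. Fitted to all compared genes, limma called 0 of 7 HOX members higher or lower, beside 0 of 7596 genes in either direction (0.0%) and 1844 genes with an unadjusted p under 0.05. HOXC9 had a mean log2 difference of 0.80 ± 0.16 (SE, 2 guides) and an adjusted p of 0.205 in limma, and it was the 1 member with an unadjusted p under 0.05 (0.0249). When genes with the same value under both guides were left out, an alternative chosen after seeing the data, limma called 664 genes higher (9.04%) and 759 lower (10.3%) of 7345, and again 0 of 7 HOX members, with an adjusted p of 0.120 for HOXC9. HOXA11 had a difference of -0.30 ± 0.24 and HOXA9 one of -0.29 ± 0.11 (limma adjusted p of 0.459 and 0.240).

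The libraries were also compared without the control. Between the guides aimed at the same site, the log2 ratio of sg71 to sg69 ran from -0.40 for HOXA11 to 0.18 for HOXC9 over the compared members, with an SD of 0.29 over all compared genes, and 0 of 7 members differed by 1.5-fold, beside 2.41% of genes higher and 2.84% lower. The log2 ratio of sgFoxF1 to the mean of the enhancer guides ran from -0.42 for HOXA9 to 0.31 for HOXA10-AS, with an SD of 0.36 over all compared genes. Here too 0 of 7 members differed by 1.5-fold, beside 5.86% of genes higher and 3.54% lower. The coding genes HOXA9, HOXA10, HOXC9 and HOXA11 were lower with sgFoxF1 than the mean of the guides, by log2 differences of -0.42, -0.32, -0.29 and -0.18. HOXA7, the other compared coding gene, was higher by 0.12. Only the difference of HOXA9 is larger than the SD over genes. HOXA11 was not lower with sgFoxF1 (28.8 RPKM) than with sg71 (28.4 RPKM), so its difference comes from sg69.

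The order of the HOXA levels was nearly the same in each library, with HOXA11 above HOXA10 and HOXA10 above HOXA9. HOXA11 stood to HOXA10 as 3.69, 3.59 and 4.00 with sg69, sg71 and sgFoxF1, against 4.43 with sgNT. HOXA10 stood to HOXA9 as 1.70, 1.25 and 1.57 with sg69, sg71 and sgFoxF1, against 1.21 with sgNT. The next place changed: HOXA9 was above HOXA11-AS with sg69, sg71 and sgNT, but below it with sgFoxF1 (4.6 against 5.6 RPKM).

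Transcript length moved with the ratios. Over 7585 compared genes whose length could be matched, Spearman's rho of log2 ratio and length was -0.49, -0.44 and -0.45 with sg69, sg71 and sgFoxF1, a description over genes of shared libraries. The compared members had a median length of 2016 nt, against 2898 nt for all compared genes, and HOXC9, HOXA11-AS and HOXA10-AS were the shortest of them. After a spline correction for length, HOXC9 had log2 ratios of 0.46, 0.59 and 0.24 with sg69, sg71 and sgFoxF1, so that with sg69 it was no longer past 1.5-fold. In the same libraries, the ratios of HOXA11-AS became 0.05, -0.03 and 0.00, those of HOXA10-AS -0.06, -0.38 and 0.12, those of HOXA9 -0.46, -0.41 and -0.88, and those of HOXA11 -0.16, -0.57 and -0.57. A corrected ratio is a distance from compared genes of like length and not from the control. The antisense RNA of HOXA11 thus changed much as genes of its length did. HOXA9 lay further below genes of its length than below the control.

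**Figure D4:**
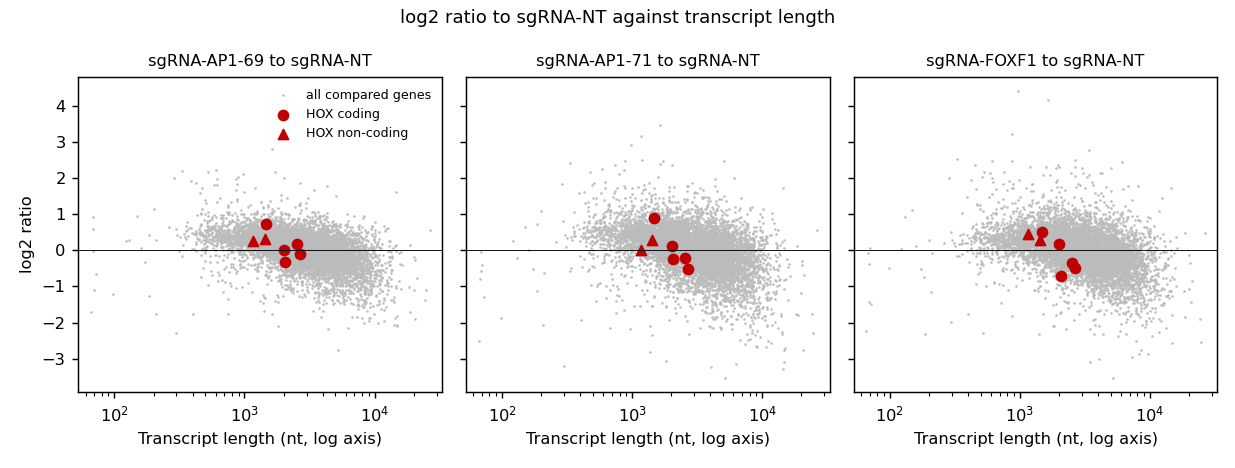
log2 ratio to sgNT against transcript length (nt, log axis) for the compared genes with a known length (grey) and the 7 compared HOX members (red circles for coding genes, triangles for antisense RNAs), with 1 panel for each targeted library. Ratios fall with length in each panel, and the antisense RNAs and HOXC9 (0.51 to 0.89) lie at the short end.

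HOX proteins bind DNA with partners of the TALE homeodomain class. MEIS1 was near the floor, at 1.0, 1.1 and 1.1 RPKM with sg69, sg71 and sgFoxF1, against 1.0 RPKM with sgNT. Of 6 compared TALE genes, 1 (TGIF1) was at least 1.5-fold higher with sg71, 0 were with sg69 or sgFoxF1, and 0 were lower. Of all compared genes, 8.18%, 14.0% and 11.6% were higher and 9.93%, 14.7% and 13.2% lower with sg69, sg71 and sgFoxF1. Their median log2 ratios were 0.22, 0.23 and 0.37 with sg69, sg71 and sgFoxF1, beside 0.07, 0.08 and 0.05 for all compared genes. After the length correction the TALE medians were 0.24, 0.16 and 0.31, beside 0.02, 0.03 and 0.01 for all compared genes. TGIF1 was at 3.4, 5.2 and 3.5 RPKM with sg69, sg71 and sgFoxF1, against 2.4 RPKM with sgNT. PBX2, the highest of the list in each library, was at 11.7, 12.7 and 12.8 RPKM with sg69, sg71 and sgFoxF1, against 9.9 RPKM with sgNT. MEIS3 and TGIF2 lay between 3.3 and 11.3 RPKM. Polycomb complexes, which keep unused HOX genes silent, had 16 compared members with median log2 ratios of 0.03, 0.01 and 0.12 with sg69, sg71 and sgFoxF1, of which 0, 2 and 0 were higher and 1, 3 and 2 lower at 1.5-fold. The shares of all compared genes were 8.18%, 14.0% and 11.6% higher and 9.93%, 14.7% and 13.2% lower in the same libraries. After the length correction, which for these lists was added after seeing the data, the Polycomb counts were 0, 4 and 2 higher and 1, 2 and 0 lower with sg69, sg71 and sgFoxF1, beside 6.0%, 11.5% and 10.0% of all compared genes higher and 7.40%, 12.1% and 10.4% lower. The methyltransferase gene EZH2 was at 1.1, 1.7 and 1.3 RPKM with sg69, sg71 and sgFoxF1, against the floor with sgNT. CBX6, RYBP, PCGF2 and EZH1 had the largest mean absolute ratios, from -1.08 (CBX6 with sg71) to -0.10 (PCGF2 with sgFoxF1). RYBP was at 2.2, 2.0 and 1.6 RPKM with sg69, sg71 and sgFoxF1, against 2.8 RPKM with sgNT. It reached the mean needed for comparison only through the control, so its place in the lower counts carries no weight. MLL and Trithorax complexes, which keep HOX genes active, had medians of -0.23, -0.24 and -0.19 with sg69, sg71 and sgFoxF1 over 9 compared genes, with 0 higher and 3, 4 and 2 lower, beside 9.93%, 14.7% and 13.2% of all compared genes lower. After the length correction, 2, 4 and 1 were lower with sg69, sg71 and sgFoxF1 and 0, 1 and 0 higher. The corrected shares of all compared genes were 7.40%, 12.1% and 10.4% lower and 6.0%, 11.5% and 10.0% higher. Among the MLL and Trithorax genes, KMT2D, a very long transcript of 20635 nt, was at 1.8, 1.0 and 2.5 RPKM with sg69, sg71 and sgFoxF1, against 6.7 RPKM with sgNT. KMT2D reached the mean needed for comparison only through the control, where it was high. Its ratio and its entry are thus not independent, and its place in the lower counts carries no weight. HCFC1 was at 4.9, 3.0 and 6.3 RPKM with sg69, sg71 and sgFoxF1, against 11 RPKM with sgNT, and SETD1A lay between 1.5 and 2.7 RPKM in the targeted libraries, against 3.7 RPKM with sgNT. MEN1, which encodes menin, was at 7.5, 6.3 and 10.1 RPKM with sg69, sg71 and sgFoxF1, against 10.1 RPKM with sgNT. CTCF, cohesin and other boundary factors had medians of -0.25, -0.19 and -0.25 with sg69, sg71 and sgFoxF1 over 8 compared genes, with 0 higher and 2, 1 and 2 lower. The uncorrected shares of all compared genes were 8.18%, 14.0% and 11.6% higher and 9.93%, 14.7% and 13.2% lower. After the length correction the medians were -0.14, -0.02 and -0.05 with sg69, sg71 and sgFoxF1, and 0, 0 and 1 were lower, beside 7.40%, 12.1% and 10.4% of all compared genes. The largest uncorrected ratios were those of WAPAL, SMC1A, STAG2 and MAZ (-1.30 to 0.49). WAPAL was at 2.1, 2.1 and 1.3 RPKM with sg69, sg71 and sgFoxF1, against 3.2 RPKM with sgNT. It too reached the mean needed for comparison only through the control, so its place in the lower counts carries no weight.

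Of the transcription factors that mark position in limb, trunk and genital mesenchyme outside the HOX clusters, MSX1 and PITX1 had the largest mean absolute log2 ratios. PITX1, a hindlimb gene, was at 36.7, 27.8 and 22.5 RPKM with sg69, sg71 and sgFoxF1, against 61.1 RPKM with sgNT, log2 ratios of -0.74, -1.14 and -1.44. MSX1, a gene of the distal limb mesenchyme, was at 16.7, 24.7 and 37.0 RPKM with sg69, sg71 and sgFoxF1, against 9.7 RPKM with sgNT, log2 ratios of 0.78, 1.35 and 1.93. TBX2 had log2 ratios of -0.98, -0.79 and -0.42 with sg69, sg71 and sgFoxF1. Over 11 compared genes of this list the medians were -0.06, 0.10 and 0.10 with sg69, sg71 and sgFoxF1, with 2, 1 and 2 higher and 2, 2 and 1 lower. Over all compared genes the medians were 0.07, 0.08 and 0.05, with 8.18%, 14.0% and 11.6% higher and 9.93%, 14.7% and 13.2% lower in the same libraries. Retinoic acid receptors, through which retinoic acid turns on HOX genes in embryos, had medians of -0.07, 0.18 and 0.00 with sg69, sg71 and sgFoxF1 over 5 compared genes, with 0, 0 and 1 higher (RARG, at 13.6 RPKM with sgFoxF1, against 7.5 RPKM with sgNT) and 1, 1 and 0 lower (RARA, with ratios of -0.68, -1.16 and -0.56), beside the same shares of all compared genes. RXRA and RXRB had ratios from -0.52 to 0.29. After the length correction, the positional factors had medians of -0.04, -0.16 and -0.24 with sg69, sg71 and sgFoxF1, with 2, 1 and 2 higher and 2, 3 and 1 lower. The receptors then had medians of -0.06, 0.15 and 0.23, with 0, 0 and 1 higher and 1, 1 and 0 lower. The corrected shares of all compared genes were 6.0%, 11.5% and 10.0% higher and 7.40%, 12.1% and 10.4% lower.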

How the data were processed

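RNA-seq libraries of 4 conditions, 1 library each, were mapped to conditions by their titles. According to the methods, single reads of 65 bp were aligned to hg19 with TopHat2 and counted with HTSeq-count, their versions being not given in the sources used here. For each gene the authors then computed RPKM (GENCODE v25), quantile-normalized the libraries and set values under 1 to 1, and the sorted columns are equal at 72.5% of ranks. Depth is unknown. The deposited columns of log2 ratios to sgNT hold the authors' own comparisons and were not used. The 7596 genes averaging 2 RPKM or more were compared by log2 ratio without a pseudocount, with a rule of 1.5-fold. With 1 library a condition, the only test was limma 3.58.1 (R 4.3.3) with a mean-variance trend, both enhancer guides as 1 group of 2 and Benjamini-Hochberg adjustment over all compared genes. Its code was run on simulated data with a spread set in advance, which does not test the spread of these libraries. GENCODE v44 lifted to GRCh37 gave positions, canonical transcripts and lengths for 12012 of 12033 genes and all 20 members. Ratios were corrected for length by subtracting a cubic spline with 5 knots, fitted to the compared genes of known length. The members, gene lists and rules were chosen with earlier results of these data known. Members above the floor, with 1 exception that is not reported here, and up to 4 compared genes of each companion list, ranked by mean absolute log2 ratio, were named, plus MEIS1 and EZH2, and some of these genes are not reported here. Alternatives were a pseudocount of 1, centring, other minimum levels, 2-fold, coding members alone, the mean, and limma without the trend. Python 3.11.15, numpy 2.4.6, pandas 2.3.3, scipy 1.17.1 and matplotlib 3.10.9 were used.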

Additional observations from a re-analysis of the deposited data

Results flagged for a closer look

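HOTAIRM1 was above sgNT with sgFoxF1 (log2 ratio of 0.26) and below it with both enhancer guides (-0.21 with sg69 and -0.10 with sg71). The boundary factor gene MAZ had ratios of 0.49 with sgFoxF1, -0.01 with sg69 and -0.19 with sg71. Both are listed because the enhancer guides and the guide against FOXF1 lay on opposite sides of the control, and neither difference was tested. HOTAIRM1 lay between 1.3 and 1.8 RPKM in all libraries, and with sg71 its rounding interval (-0.20 to 0.00) reaches the level of the control. After the length correction its ratios were -0.10 with sgFoxF1, -0.61 with sg69 and -0.54 with sg71. These are distances from compared genes of like length and not from the control. HOTAIRM1 was not among the genes to which the correction was fitted. For HOTAIRM1, the opposite sides of the control thus rest on the uncorrected values alone, which are near the floor. MAZ with sg69 was at 20 RPKM, against 20.1 RPKM with sgNT, the smallest step that the rounding can show.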

How the results depend on the processing

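No paired analysis was possible because the conditions have 1 library each. The medians of the compared members moved with the choice of members and with the length correction: with a mean of at least 5 RPKM (4 members) they were 0.032, -0.23 and -0.41 with sg69, sg71 and sgFoxF1, for coding members alone 0.00, -0.20 and -0.34, and after the length correction -0.057, -0.28 and -0.00063. Over every member above the floor the median was 0.00 with sg69. Over the compared members, the mean in place of the median was -0.016 with sgFoxF1. The count of members higher with sg69 was 0 with a pseudocount of 1, with a mean of at least 5 RPKM, after the length correction and at 2-fold. The count higher with sg71 was 0 with a mean of at least 5 RPKM and at 2-fold, and the count lower with sgFoxF1 was 0 at 2-fold. Over the 15 members above the floor the higher counts were 2, 2 and 1 in the 3 libraries, and 2 were lower in each of the sg71 and sgFoxF1 libraries. No share over all genes above the floor was computed to set beside them. They include HOXD-AS2, HOXB2 and HOTAIR, each counted through a value at the floor, so these counts carry no weight. The cause of the changes between choices was not tested beyond the members and genes each choice leaves in. Of 21 single-member ratios, 4 changed sign with the length correction and 0 with centring or a pseudocount of 1. limma called 0 of the members under each alternative, and over all genes 664 higher and 759 lower once genes equal under both guides were left out, against 0 and 0 otherwise. For limma, leaving out an enhancer guide leaves no residual degrees of freedom, so only the ratio of the other guide can be given. Near the floor, values given to 1 decimal limit what can be seen, and a level under 1 RPKM cannot be measured.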
